A study of Homo sapiens with 12 samples.

Results

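The noisiest well-expressed genes of wild-type (WT) eHAP1 cells were examined, 150 genes out of the 5204 that could be ranked and the 21561 with a row in the WT data. They were chosen by their noise in WT cells: unique molecular identifiers (UMIs, each counted as one captured RNA molecule) were scaled in every cell to the median total of its batch, genes with a mean of at least 2 scaled UMIs per cell in both WT batches were kept, and those with the highest lower value of the 2 Fano factors were taken. Of 5529 genes with that mean, 325 were left out by name, 34 with the prefix MT-, 280 with RPL or RPS and 11 histones. The Fano factor is the variance between cells divided by the mean, and is 1 where cells differ by random sampling of molecules alone. The genes were profiled by LAST-seq, in which mRNA in a single cell is captured on a barcoded primer and amplified linearly by in vitro transcription from the captured strand. The series holds 1 sample of WT eHAP1 cells (73 cells in batch 1 and 75 in batch 2) and 1 sample of eHAP1 cells with a knockout of SCC4 (SCC4 KO, 77 and 76 cells). Live G1-phase haploid cells were flow-sorted one to a well. Both genotypes share the line and the described protocol of sorting and lysis, with carrier RNA and spike-in in the wells. Whether they were sorted or prepared together is not stated. HEK293T libraries of 10 wells each served as a set that the choice of genes did not use.

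eHAP1 is a haploid human line derived from the chronic myelogenous leukaemia line behind HAP1 and grows as adherent cells. The SCC4 KO cells were made by electroporating Cas9 with a guide RNA against SCC4 and expanding sorted single cells, so a difference between the genotypes cannot be told apart from a difference between clones. SCC4, listed under the symbol MAU2, loads the cohesin ring onto chromatin together with NIPBL. MAU2 had 326 and 507 UMIs in WT batches 1 and 2, and 59 and 169 UMIs in the SCC4 KO batches. Its mean was 3.99 and 5.82 scaled UMIs per cell in WT against 0.713 and 2.16 in SCC4 KO, lower in both batches but not 0. Of 9 markers of blood and stem cells, 7 were at 0 UMIs in all batches, among them PTPRC and GATA1, and the other 2, CD34 and KIT, were below 1 scaled UMI per cell in every batch. BCR had a mean of 0.602 to 1.13 and VIM, an intermediate filament gene, of 8.42 to 29.4.

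The median total per cell was 89978 and 143882 UMIs in WT batches 1 and 2 and 81789 and 152433 in SCC4 KO batches 1 and 2. Single cells reached from 18022 to 926415 UMIs, both extremes in WT batch 2. With these totals, sampling of molecules alone gives a Fano factor between 1.02 and 1.11 after scaling. Each genotype used 78 cell barcodes, all of them in both genotypes and 67 in all 4 batches, and the closest 2 cells had a mean squared difference over sum of 1.10, where independent sampling of molecules gives 1 and a repeated cell 0. No doublet caller was run, as the cells were sorted singly. For 122 abundant genes, the level in batch 2 over that in batch 1 had a log2 standard deviation of 0.0128 in WT cells, below the 0.0225 that counting error alone gives, and 0.0377 in SCC4 KO cells against 0.0258. Whether the deposited UMIs had passed the ComBat-seq batch correction is not stated, so the batches are read as 2 views of 1 sample per genotype, and not as independent cultures.

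Transcription in mammalian cells occurs in bursts, in which a promoter switches between an inactive state and an active one that releases several transcripts. Short-lived transcripts, long pauses between bursts and shared regulators all raise the difference between sister cells. Immediate-early genes such as FOS are textbook cases of pulsed expression, whereas most housekeeping genes vary little. In sequencing counts the same variance can also be raised by how RNA is captured and amplified in single wells.

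The lower WT Fano factor of the 150 members ran from 1.91 to 168 with a median of 2.26, against a median of 1.14 over all genes tested. These values chose the members and carry no test. The last members inside the threshold were LDB1, a LIM-domain binding adaptor, at 1.92, the DNA demethylase gene TET1 at 1.91 and the TFIIIC subunit GTF3C2 at 1.91. The first genes outside were PHF20L1 at 1.91, the deadenylase gene CNOT7 at 1.90 and the anaphase-promoting complex subunit CDC27 at 1.90, so no gap separated members from the genes that follow. Only 11 members lay above 5 and 9 above 10. The members covered the whole range of levels, with means of 2.02 to 3502 scaled UMIs per cell in WT batch 1, of which 30 were below 3, and 21 members had a mean of at least 50 in both WT batches. The members held 10.3% and 10.4% of all UMIs in the WT batches and 8.39% and 8.37% in the SCC4 KO batches.

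**Figure D1:**
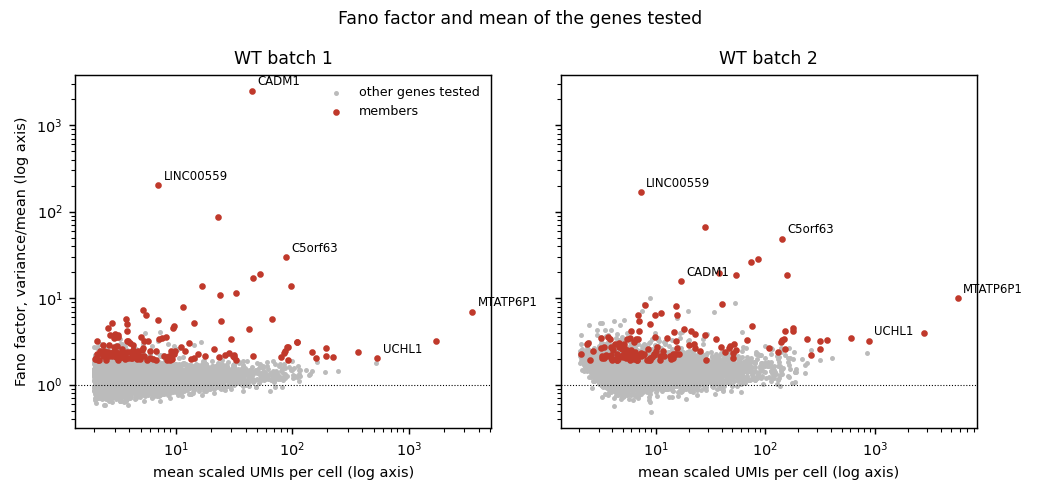
Fano factor (variance over mean, log axis) against mean scaled UMIs per cell (log axis) of the 5204 genes tested, in WT batches 1 and 2. The 150 members are in red, other genes in grey, and a dotted line marks 1. The members lie above 1.91 in both batches, with CADM1 highest in WT batch 1 and LINC00559 in WT batch 2. Other genes reach 4.07 in WT batch 1 and 9.92 in WT batch 2, as the lower of the 2 values set the choice.

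Because the variance from sampling scales with the mean, noise was also expressed as the extra-Poisson squared coefficient of variation (CV squared), which subtracts the sampling part and divides by the squared mean. Its median over members was 0.316 and 0.172 in WT batches 1 and 2, against 0.0237 and 0.0291 over all genes tested. In 17 and 22 members respectively it lay below that median of all genes tested. Many of these were abundant genes, such as the neuronal ubiquitin hydrolase UCHL1, which ranged from 471 to 624 scaled UMIs per cell around a median of 536 in WT batch 1.

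LINC00559, a long intergenic noncoding RNA on chr13:90060247-90119719 (GRCh38, minus strand), had the highest lower Fano factor. It ranged from 0 through a median of 1.81 to 326 scaled UMIs per cell in WT batch 1, and from 0 through 1.10 to 295 in WT batch 2. In SCC4 KO it ranged from 0 through 2.80 to 653 in batch 1, and from 0 through 1.69 to 520 in batch 2. Most cells therefore held few molecules and single cells very many, in all 4 batches, and the Fano factors were 203, 168, 423 and 296 in that order. The highest cell carried the same barcode, GTCAAC, in all 4 batches. Those 4 cells had ordinary totals of 80621, 152680, 79238 and 134025 UMIs. Without them the Fano factor of LINC00559 was 2.73, 27.4, 32.1 and 70.9. Cells with one barcode in different batches are different cells, and what they share beyond the barcode was not tested.

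This repeat of a barcode was rare. Of the 5204 genes tested, 3 had their highest cell under one barcode in all 4 batches, and all were members: LINC00559, the mitochondrial pseudogene MTND1P23 and CMTM7, a MARVEL-domain membrane protein gene. In the 2 WT batches the barcode of the highest cell was the same for 10 members, against 75 of all genes tested (1.44%). DLC1, a tumour suppressor gene, had the same barcode on top in both WT batches and in SCC4 KO batch 1 (125, 389 and 83.8 scaled UMIs), and another in SCC4 KO batch 2. Over barcodes shared by 2 batches, the Spearman rho of a member's values had a median of 0.0107 to 0.0528 over the 6 pairs of batches, and its 95th percentile was 0.261 to 0.362. Over all genes tested, the median was 0.0073 to 0.0192 and the 95th percentile 0.205 to 0.220. It passed 0.2 in all 6 pairs for 5 members, LINC00559 (0.31 to 0.65), LDB1, the calcium-responsive transcription factor CARF, DLC1 and the mitochondrial pseudogene MTND4P12. For the other members, most of the order of cells was not shared between cells of one barcode.

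Several members were noisy through a single cell. CADM1, an immunoglobulin-like cell adhesion molecule, ranged from 1.75 through a median of 5.39 to 2891 scaled UMIs in WT batch 1, where 1 cell held 87.3% of its UMIs, and from 0 through 11.03 to 73.5 in batch 2. Its Fano factors were 2514 and 15.8, and 1.25 and 14.0 without the highest cell of each batch. In SCC4 KO its highest cells held 19.01 and 24.2 scaled UMIs, and its Fano factors were 1.36 and 1.51. HIP1, a clathrin adaptor gene of endocytosis, ranged from 10.5 through 17.5 to 401 in WT batch 1 and from 0 through 28.1 to 54.2 in batch 2, with Fano factors of 87.8 and 3.72. Leaving out the highest cell lowered the Fano factor by more than 50% for 40 members in WT batch 1, 19 in WT batch 2, 14 in SCC4 KO batch 1 and 3 in SCC4 KO batch 2. In both WT batches it did so for 2 members, LINC00559 and DLC1. Over all genes tested, the count was 108 (2.08%) in each WT batch. In WT batch 2, the shallowest cell, of 18022 UMIs, held the highest value of 14 members.

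C5orf63 and SENP7 had broad distributions in place of a lone cell in WT. C5orf63, a glutaredoxin-like protein gene (chr5:127045235-127073506, minus strand), ranged from 23.4 through a median of 75.5 to 248 scaled UMIs in WT batch 1 and from 7.98 through 108 to 428 in WT batch 2. SENP7, a protease that trims chains of the modifier SUMO, ranged from 11.1 through 43.4 to 176 and from 29.0 through 65.8 to 232. Fano factors were 29.7 and 48.8 for C5orf63 and 18.8 and 28.3 for SENP7, and they were 26.6, 42.6, 15.5 and 25.8 without the highest cells. CARF ranged from 51.1 through 88.9 to 307 and from 63.9 through 152 to 370, with Fano factors of 13.9 and 18.3. It was also broad, but its highest cell in WT batch 1 lay at 307 against a mean of 96.8.

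BCYRN1, a short RNA polymerase III transcript known from neurons and tumours, also varied broadly. It ranged from 9.49 through a median of 29.7 to 95.5 scaled UMIs in WT batch 1 and from 16.0 through 41.9 to 157 in WT batch 2. In SCC4 KO it ranged from 13.4 through 36.1 to 403 and from 16.6 through 71.4 to 414. The SCC4 KO batches reached higher but overlapped the WT batches over most of their range, and the Fano factors were 11.3, 18.6, 58.9 and 63.7.

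**Figure D2:**
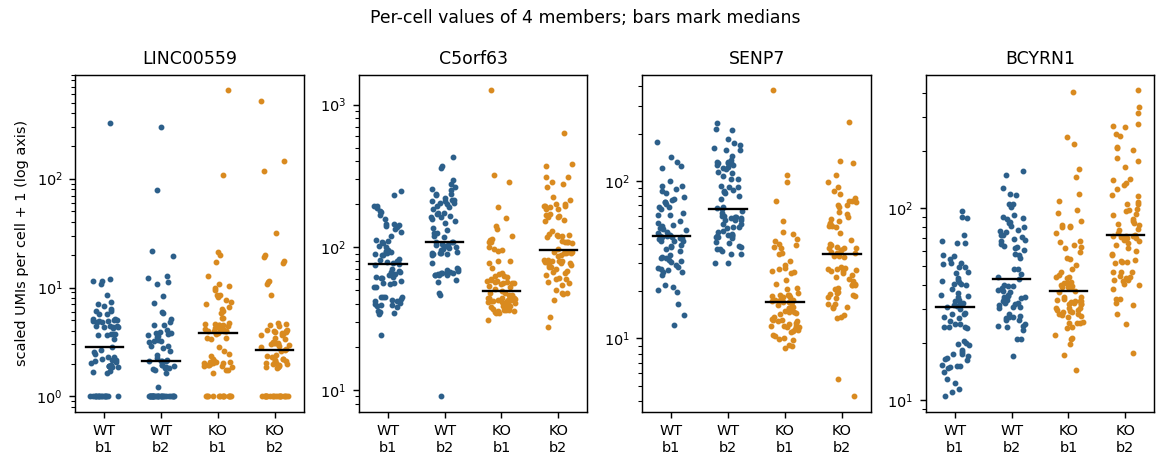
Scaled UMIs per cell + 1 (log axis) of LINC00559, C5orf63, SENP7 and BCYRN1 in batches 1 and 2 of WT (blue) and SCC4 KO (orange) cells, where each point is a cell and each bar the median of a batch. A lone high cell stands above each batch for LINC00559, while the other 3 genes spread continuously, with 1 cell far above the rest in SCC4 KO batch 1.

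The remaining genes among the 20 highest were of mixed function. MTATP6P1 is a nuclear copy of a mitochondrial gene, at 3502 and 5733 scaled UMIs per cell with Fano factors of 6.99 and 9.96. It is 1 of 6 such mitochondrial pseudogenes among the members, whose reads cannot be told apart with certainty from those of the mitochondrial genes. ZNF3 (a zinc finger protein), ELAVL3 (a neuronal RNA-binding protein) and PPP6R3 (a regulatory subunit of protein phosphatase 6) had Fano factors of 4.48 to 8.46 in the WT batches. RP9, a splicing-associated gene of retinal disease, ranged from 0 through 0.967 to 15.7 and from 1.05 through 6.79 to 70.8, with Fano factors of 4.53 and 8.36. EIF4E3 (cap binding), CCDC50 (a ubiquitin-binding adaptor), KLF7 (a Krüppel-like transcription factor), RCBTB1 (an RCC1-domain protein) and AHI1 (a ciliary transition zone protein) had Fano factors of 3.40 to 6.33. For EIF4E3 and RCBTB1 the value was 0.744 and 0.714 without the highest cell of WT batch 1, and for CCDC50 and AHI1 it was 0.863 and 1.28 without that of batch 2. ENSG00000256399, a processed pseudogene on chr12:63887379-63888598 (minus strand), and ENSG00000269504, a long noncoding RNA, had Fano factors of 17.2 and 26.3, and 10.8 and 19.6.

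By annotation, 135 members were protein coding (90%, against 93.4% of the genes tested), 8 were pseudogenes (5.33% against 4.15%) and 5 long noncoding RNAs (3.33% against 2.02%). Exons of 65 members overlapped a gene on the opposite strand (43.3% against 40.0%) and those of 27 a gene on the same strand (18% against 16.9%), so their counts may hold reads of the neighbour. Against 35 lists of pathways and gene families, the members were scattered: 14 members stood on any list, no list held 3 or more of them and 24 lists held none. No list is therefore described as noisy. Members make up 2.88% of the genes tested, and 610 of the genes tested stood on a list.

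Single members of the lists had low to moderate excess noise. The immediate-early list held 2 members among 9 genes tested. FOS, an AP-1 transcription factor, ranged from 1.32 through a median of 8.34 to 24.9 scaled UMIs in WT batch 1 and from 0 through 12.6 to 46.5 in batch 2, with Fano factors of 2.14 and 4.02. KLF6, a Krüppel-like factor induced by serum, had Fano factors of 1.98 and 3.82. HSP90AA1, the inducible cytosolic chaperone, ranged from 176 through 228 to 268 and from 279 through 368 to 479. The other members on lists were SC5D (sterol synthesis), SMC4 (condensin), BNIP3L (mitophagy), HOXC8 (a homeobox factor), UCHL1, NOP58 (a small nucleolar ribonucleoprotein), EIF5B (translation initiation), SRSF6 and HNRNPC (RNA processing), and ACTN4 and CFL1 (actin crosslinking and severing). The lists of the respiratory chain, with 70 genes tested, of S phase, with 44, and of the proteasome and ubiquitin, with 39, held no member.

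Promoters of 109 members were matched in RefSeq (GRCh38.p14, 250 bases before to 50 after the start). The letters TATAAA, on either strand, stood in 7 of them (6.42%), against 4.74% of the promoters of genes tested and 11.95% of 27305 promoters in all. Within 50 to 15 bases before the start they stood in 3 member promoters (2.75%, against 1.49% and 3.43%), those of BBX (an HMG-box factor), FOS and UCHL1. The GC box letters GGGCGG stood in 64.2% of member promoters (74.1% of tested, 44.6% of all) and the letters CCAAT in 33.9% (38.4% and 35.7%), where a promoter can hold several motifs. Shown are the promoters of the member with the highest lower Fano factor, of the leading gene of the co-varying group described further on, and of the 2 members on lists with TATAAA near the start. Capitals mark TATAAA on either strand for LINC00559 (chr13:90119668-90119967, minus strand), FOS (chr14:75278578-75278877, plus strand) and UCHL1 (chr4:41256678-41256977, plus strand), and GGGCGG for C5orf63 (chr5:127073453-127073752, minus strand).
LINC00559: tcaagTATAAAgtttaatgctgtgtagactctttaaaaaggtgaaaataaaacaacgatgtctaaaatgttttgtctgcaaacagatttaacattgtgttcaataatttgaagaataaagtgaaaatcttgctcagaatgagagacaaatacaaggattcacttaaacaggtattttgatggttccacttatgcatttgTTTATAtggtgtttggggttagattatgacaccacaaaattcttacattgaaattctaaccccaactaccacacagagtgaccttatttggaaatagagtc
C5orf63: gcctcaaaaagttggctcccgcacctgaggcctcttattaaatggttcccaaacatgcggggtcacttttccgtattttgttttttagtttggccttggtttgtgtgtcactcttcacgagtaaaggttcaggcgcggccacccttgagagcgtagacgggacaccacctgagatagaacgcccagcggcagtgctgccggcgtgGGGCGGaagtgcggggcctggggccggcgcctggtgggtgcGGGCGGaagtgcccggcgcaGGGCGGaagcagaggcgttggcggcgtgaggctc
FOS: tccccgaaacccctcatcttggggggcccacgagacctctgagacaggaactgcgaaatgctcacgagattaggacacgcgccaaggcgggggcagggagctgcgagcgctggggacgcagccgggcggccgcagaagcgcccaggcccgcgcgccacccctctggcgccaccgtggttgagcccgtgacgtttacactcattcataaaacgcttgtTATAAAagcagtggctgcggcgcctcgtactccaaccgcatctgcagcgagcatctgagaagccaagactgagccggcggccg
UCHL1: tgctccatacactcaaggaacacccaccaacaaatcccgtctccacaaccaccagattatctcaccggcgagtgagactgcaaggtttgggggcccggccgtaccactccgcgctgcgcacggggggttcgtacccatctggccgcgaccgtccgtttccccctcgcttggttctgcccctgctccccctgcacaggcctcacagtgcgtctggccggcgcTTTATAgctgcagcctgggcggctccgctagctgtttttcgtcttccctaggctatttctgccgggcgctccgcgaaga
The match nearest the start lay 51 bases before it in LINC00559, 33 in FOS and 29 in UCHL1, and C5orf63 held 3 GGGCGG. A match is a description of these letters and not of a bound site.

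Most pairs of members showed little correlation between cells. This does not show independence, as counting error lowers rho for genes with few UMIs. Over 11175 pairs, the median Spearman rho between cells was 0.0076 in WT batch 1 and 0.0060 in batch 2, and it was −0.0013 and 0.0035 over 11026 pairs in the SCC4 KO batches. All pairs of a batch share its cells and their totals. In 1.91% and 1.97% of the WT pairs rho was over 0.3, and in 1.23% and 1.54% of the SCC4 KO pairs. The 104 pairs over 0.3 in both WT batches lay almost all in one place: 94 of them joined genes of a single group of 15. Average linkage of the WT rho at 0.3 placed 116 members in no group at all.

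The group of 15 held C5orf63, SENP7, ENSG00000256399, CARF, BCYRN1, ZNF3, ELAVL3, PPP6R3, the long noncoding RNA ENSG00000259001, YIPF4 (a Golgi membrane protein), BCAT2 (the mitochondrial branched-chain aminotransferase), FUT2 (a fucosyltransferase), PAOX (a polyamine oxidase), WDPCP (a ciliary and planar polarity effector) and TMEM134 (a membrane protein). Of these, 8 were among the 20 highest members. FUT2 and BCAT2 are near neighbours on chromosome 19, where they start at 48695971 and 48795062, and the other genes lie on other chromosomes or farther apart. No gene of the group stood on any of the lists. Within the group, the 105 pairs had a median rho of 0.620 (0.102 to 0.949) in WT batch 1 and 0.666 (0.380 to 0.948) in WT batch 2. WT cells that chose the members also set the group, so these values are descriptions. The tightest pairs in WT were SENP7 with ENSG00000256399 (0.93 and 0.92), C5orf63 with ENSG00000256399 (0.95 and 0.91), C5orf63 with SENP7 (0.91 and 0.93) and C5orf63 with BCYRN1 (0.89 and 0.95).

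The SCC4 KO cells were not used to form the group. ENSG00000256399 had no UMI there, and the other 91 pairs had a median rho of 0.561 (0.196 to 0.881) in batch 1 and 0.261 (−0.300 to 0.910) in batch 2. Pairs outside the group had medians of −0.0027 and 0.0026 in those batches, with 95th percentiles of 0.191 and 0.207. Both batches passed 0.3 in 43 of the 91 pairs. C5orf63 with BCYRN1 had 0.88 and 0.91, C5orf63 with SENP7 0.88 and 0.75, and ELAVL3 with PPP6R3 0.68 and 0.84. In batch 2 the mean rho to the group was −0.01 for ENSG00000259001, 0.07 for BCAT2 and 0.07 for CARF, at means of 0.310, 34.7 and 91.7 scaled UMIs per cell. With 24 UMIs over 76 cells, ENSG00000259001 was too low there for its rho to say anything. ENSG00000259001 overlaps RPPH1, the RNase P RNA gene, on the same strand.

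**Figure D3:**
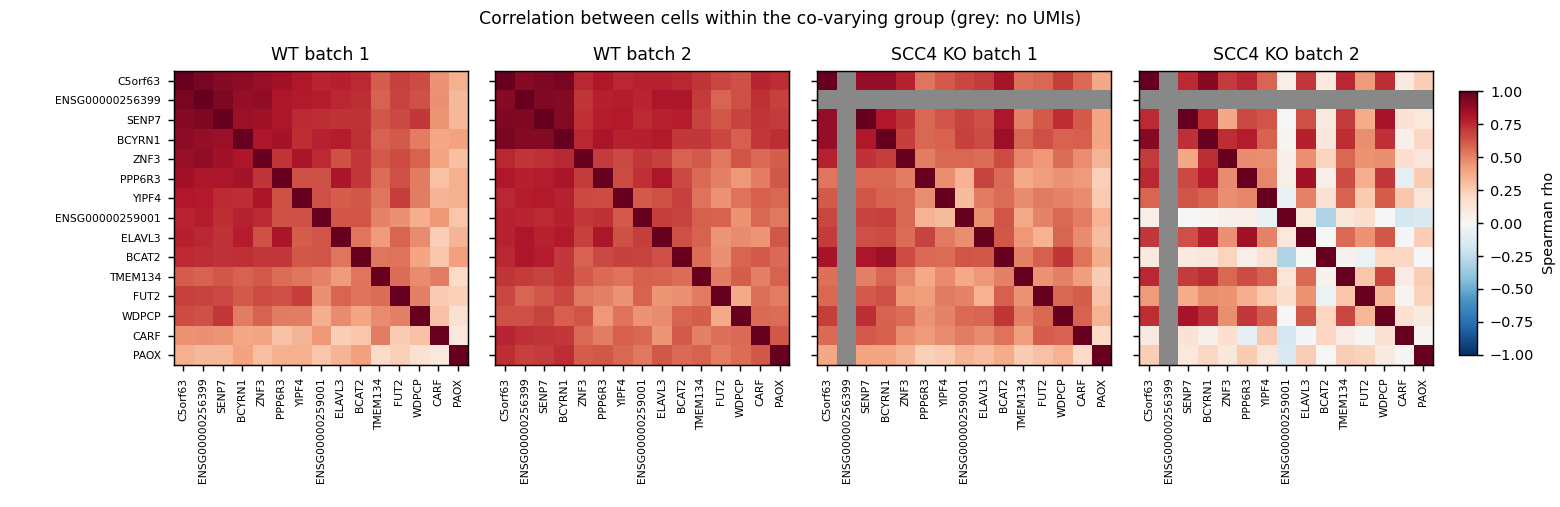
Spearman rho between cells for each pair of the 15 genes of the co-varying group, in WT and SCC4 KO batches 1 and 2 (colour scale from −1 to 1; grey, no UMIs in SCC4 KO). All pairs are positive in WT, with medians of 0.620 and 0.666, and a core of C5orf63, SENP7 and BCYRN1 is visible in all 4 batches.

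The same few cells held the highest values of the group. In WT batch 1, 1 cell of 136122 UMIs held the highest value of 6 of the 15 genes, and in WT batch 2, 1 cell of 187449 UMIs of 10. In SCC4 KO batch 1, 1 cell of 101675 UMIs held the highest value of 13 of 14 genes, C5orf63 at 1269 scaled UMIs and BCAT2 at 467 among them, and in batch 2, 1 cell of 162732 UMIs that of 7. The mean log2(scaled UMIs + 1) over the group correlated with a cell's total UMIs at rho 0.44, 0.22, 0.29 and 0.19 in WT batches 1 and 2 and SCC4 KO batches 1 and 2, and with its mitochondrial share at 0.07, −0.31, −0.16 and −0.35. Between cells of one barcode in different batches it correlated at −0.087 to 0.146 over 70 to 75 barcodes. The part of depth and mitochondrial share in the group was not tested.

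Sequence features were counted for the group. A run of 15 or more A stood in the transcripts of 4 of the 15 (26.7%), of 18.7% of the members and of 16.8% of the genes tested. The longest transcript had a median of 3116 bases in the group, 4276.5 over members and 3629 over genes tested. Promoters of 8 group genes were matched, of which none held TATAAA and 6 held GGGCGG. Counts of this size describe the group only.

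Smaller sets also moved together. SH3KBP1 (an endocytic adaptor), LINC03031, TTC33 and LDB1 had a median rho of 0.40 and 0.32 in WT batches 1 and 2 and 0.19 and 0.45 in SCC4 KO. MTATP6P2, MTND4P12 and the splicing factor SRSF6 had 0.36 and 0.43 in WT and 0.23 and 0.39 in SCC4 KO.

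The SCC4 KO cells gave noise values that the choice of members did not use. The median Fano factor of the members was 1.63 and 1.73 in SCC4 KO batches 1 and 2, against 1.28 and 1.27 over all genes tested, with 149 members measured. Above the median of all genes tested lay 116 and 121 members, and above the 95th percentile, 1.96 and 2.04, lay 48 and 56. The median CV squared was 0.142 and 0.0656 over members against 0.0427 and 0.0197 over all genes tested, a ratio of 3.33 in the mean over both batches. When the ranking was repeated in SCC4 KO cells, 113 members passed the mean of 2, and 34 of the 150 (22.7%) were among the 150 noisiest genes, which are 3.09% of the 4854 genes ranked there. Of the 20 noisiest SCC4 KO genes, 12 were members. The 113 members ranked in SCC4 KO had a median rank of 452. With UMIs left unscaled and the members chosen anew, 105 were shared, but the ratio of the median CV squared was 0.717.

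Noise in the knockout differed between the co-varying group and the other members. Of the group, 12 of 15 genes were among the 150 noisiest SCC4 KO genes, and of the other members 22 of 135. Median CV squared of the group was 0.339 and 0.320 in WT batches 1 and 2, and 0.960 and 0.590 in SCC4 KO. Over the other members it was 0.304 and 0.153 in WT, and 0.110 and 0.0572 in SCC4 KO. CV squared was higher in SCC4 KO in both batches for 11 group genes and lower in both for none, while among the other members it was higher for 17 and lower for 80. Over all genes tested, 28.1% were higher in both batches and 24.7% lower. The WT side of this ratio chose the members, so a count of lower values supports nothing by itself, and the difference between the group and the others was not tested. Without the highest cell of each gene and batch, the group medians were 0.299, 0.291, 0.370 and 0.372, with 10 genes higher and 3 lower. The other members then had 0.0368, 0.0596, 0.0242 and 0.0294, with 21 higher and 47 lower.

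**Figure D4:**
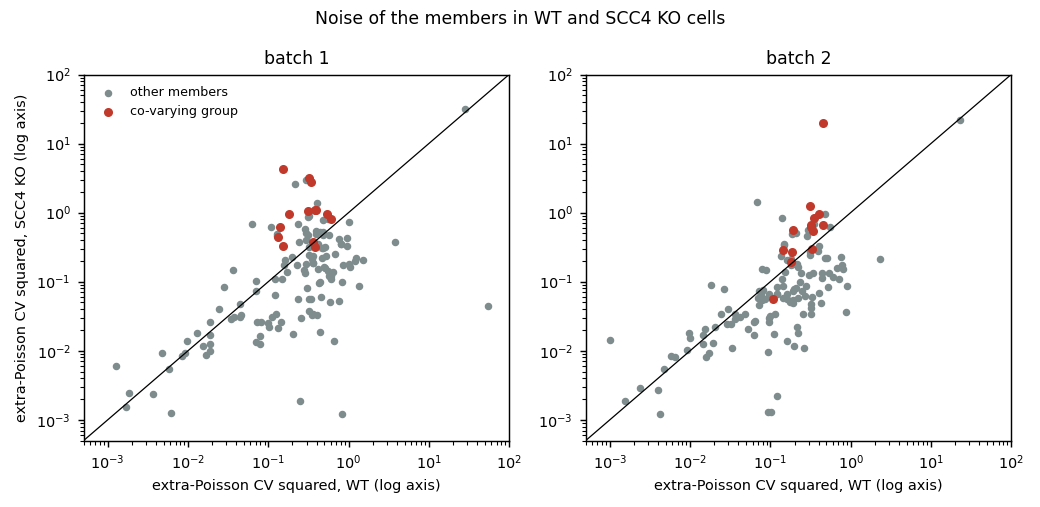
Extra-Poisson CV squared of the members in SCC4 KO against WT cells (log axes), for batches 1 and 2, with the co-varying group in red, other members in grey and the line of equal noise. Members with a value at or below 0 are not drawn. Most group genes lie above the line and most other members below it.

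The members with the lowest ratio of CV squared in SCC4 KO over WT, by the batch nearer to no change, were CADM1, PTS (tetrahydrobiopterin synthesis), RP9, HIP1 and DHX36 (a helicase of G-quadruplexes). For PTS it was 0.353 and 0.1999 in WT and 0.0327 and 0.0116 in SCC4 KO, at means of 3.10 and 5.96, and 3.09 and 5.72, scaled UMIs per cell. For RP9 it was 1.33 and 0.901 in WT and 0.0875 and 0.0860 in SCC4 KO, at means of 2.63 and 8.04 in WT and 7.67 and 14.7 in SCC4 KO. In DHX36, CV squared was 0.258 and 0.160 in WT and 0.0300 and 0.0140 in SCC4 KO. The ratio was highest for MTND1P23, HDAC9 (a class IIa histone deacetylase), TMEM134, SMC4 and ANKRD12 (an ankyrin-repeat cofactor). ANKRD12 had means of 3.19 and 5.84 in WT but of 0.818 and 1.59 in SCC4 KO, below the minimum of 2. Its Fano factor was 2.05 and 1.92 in WT and 1.76 and 2.35 in SCC4 KO. SMC4 ranged from 15.6 through 31.3 to 59.6 and from 34.8 through 51.8 to 91.5 scaled UMIs in WT, and from 6.46 through 16.8 to 55.1 and from 13.7 through 32.2 to 75.1 in SCC4 KO, and its CV squared was 0.0279 and 0.0265 against 0.0825 and 0.0782. HDAC9 had a CV squared of 0.0359 and 0.0183 in WT and 0.148 and 0.0881 in SCC4 KO, although its Fano factor was lower in SCC4 KO (1.81 and 1.92 against 2.14 and 2.04), and its mean was 31.4 and 50.7 in WT and 5.28 and 10.0 in SCC4 KO. These differences carry no test, as each genotype was 1 sample.

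The levels of the members were compared as the log2 ratio of their share of all UMIs of a batch, after adding 0.5 UMI. In SCC4 KO, 31 members (20.7%) were more than 2-fold lower in both batches, where 3.55% of all genes tested were, and none was more than 2-fold higher in both, where 0.98% were. In single batches, 38 members were lower in each, and 4 and 1 were higher. The median log2 ratio was −0.33 and −0.45 over the members and −0.06 and −0.04 over all genes tested, and 99 members were negative in both batches (66% against 49.3%). The members had to pass the mean and the noise ranking in WT cells only, which favours genes with high WT sums, so the count of lower members supports nothing by itself. Without the highest cell of each gene and batch, 32 members (21.3%) were lower in both batches and 1 was higher, against 3.63% of all genes tested that were lower. Sums over cells cannot tell fewer expressing cells from less RNA in each.

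The largest difference was that of ENSG00000256399, which ranged from 15.0 through a median of 37.6 to 139 scaled UMIs in WT batch 1 and from 18.0 through 53.7 to 227 in WT batch 2. It had 3984 and 6827 UMIs in the WT batches and none in either SCC4 KO batch, at least 1160-fold and 2160-fold lower by a floor of 3 UMIs per batch. ENSG00000269504 had 2002 and 3109 UMIs in WT and 88 and 75 in SCC4 KO, log2 ratios of −4.30 and −5.29. Of the group, PAOX (−2.63 and −4.06) and ENSG00000259001 (−1.67 and −4.98) were also more than 2-fold lower. TSHZ1, a zinc finger factor of development, ranged from 8.61 through 17.5 to 52.4 and from 15.5 through 28.7 to 67.7 in WT, and from 0 through 1.004 to 6.94 and from 0 through 4.11 to 13.3 in SCC4 KO, log2 ratios of −3.29 and −2.83. HIP1 (−3.61 and −2.81), HDAC9 (−2.44 and −2.42), CCDC80 (−3.61 and −2.29), a secreted matrix-associated protein, and ANKRD12 (−1.99 and −1.93) followed. For TSHZ1 the highest SCC4 KO cell lay below the lowest WT cell in both batches. HIP1 was separated in this way in batch 1 and overlapped in batch 2, HDAC9 overlapped in batch 1 and was separated in batch 2, and CCDC80 and ANKRD12 overlapped in both.

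**Figure D5:**
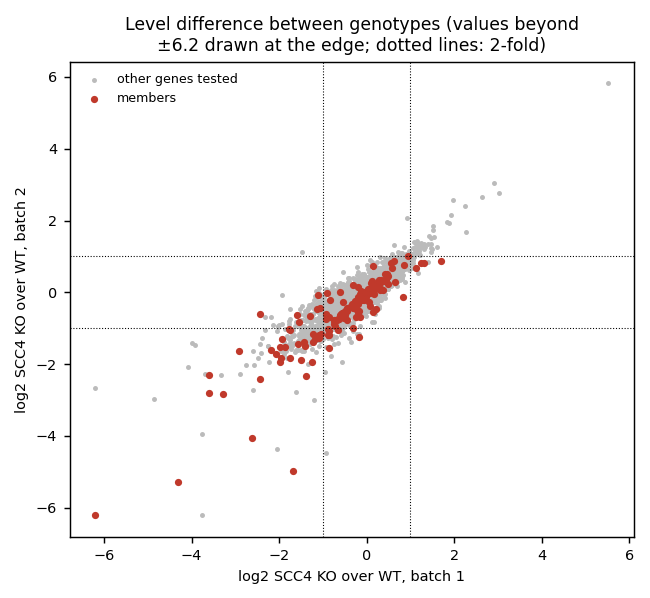
Log2 ratio of SCC4 KO over WT of the members (red) and the other genes tested (grey) in batch 2 against batch 1, with dotted lines at 2-fold and values past 6.2 drawn at the edge. Of the members, 31 lie beyond 2-fold in the lower left and none in the upper right.

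In edgeR's quasi-likelihood test on the sums per batch (Benjamini-Hochberg adjusted p under 0.05), 87 members were lower in SCC4 KO, where 36.6% of the genes tested were, and 21 were higher, where 19.3% were. This test takes the 2 batches of 1 sample as replicates although nothing shows that they were separate cultures, so its calls measure the spread between batches only, which for abundant WT genes was below counting error, and do not compare genotypes over independent samples. The members' share of lower calls, 87 of 150, lay above that of all genes tested, and their share of higher calls below it. As the members were chosen in WT cells only, which favours lower calls, these shares support nothing by themselves. Members that were higher by more than 1.5-fold in both batches were LINC00559, BCYRN1, RP9, BCAT2, SMAD5 (a signal transducer of bone morphogenetic proteins), ENSG00000278943 and NPLOC4 (a cofactor of the segregase VCP). The share of all genes tested past 1.5-fold was not counted. For LINC00559, with log2 ratios of 1.23 and 0.81, the 4 cells of one barcode held most of its UMIs.

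HEK293T, an embryonic kidney line, gave a second set of cells. In 2 libraries of 10 single cells, 110 members in each had a mean of at least 2, and their median Fano factor was 1.16 and 1.31 against 1.10 and 1.11 over all genes tested, a ratio of 1.05 and 1.19. Above the 95th percentile of all genes lay 19 and 17 members. The 15-pg total RNA wells, which hold no cell-to-cell difference, gave 1.16 against 1.001 for 90 members with 14 above that percentile, and the wells of cell lysate 1.26 against 1.05 for 66 members with 13 above. The ratios of members to all genes were 1.16 and 1.19 there. With every well thinned to 50000 UMIs, the ratio was 1.24 and 1.10 in the 2 single-cell libraries, 0.968 in RNA and 1.18 in lysate, over 54, 65, 50 and 47 members. The order of cells and RNA thus depended on the depth, and none of these ratios was tested. Without thinning, the highest Fano factor of a member was 64.0 and 52.1 in the single cells, 14.5 in RNA and 7.29 in lysate. High values thus also occurred in wells of RNA and lysate. BCYRN1 had Fano factors of 11.8 and 5.19 in the single cells and 2.30 and 1.40 in RNA and lysate, and CARF 27.6 and 17.0 in the single cells and 1.58 in RNA. C5orf63 had 0.684 and 1.62 in the single cells, at means of 2.57 and 5.13 scaled UMIs against 87.9 and 142 in the WT eHAP1 batches. LINC00559 had a mean of 0.608 and 0.189 there and was not ranked. Between the 10 wells, pairs of the co-varying group had a median rho of 0.09 and 0.22 in single cells, 0.13 in RNA and 0.23 in lysate, against 0.0061 to 0.018 for other pairs of members, a description from 10 wells that share their depth.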

How the data were processed

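The files deposited by the authors hold whole-number counts, that is UMIs of each gene in each cell or well, not scaled to a common total. According to the methods, reads were trimmed with cutadapt, aligned with zUMIs to GRCh38 with the spike-in sequences, restricted to exons, and UMIs were collapsed by sequence identity. Wells with too few exon reads or a low exon mapping rate had been removed. The methods describe subsampling of reads to an equal depth and, for eHAP1 cells, removal of batch effects by ComBat-seq, and do not say whether the deposited eHAP1 UMIs are from before or after these steps. Other files of the series (sequencing reads, CEL-seq2 and SMART-seq) were not used here.

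UMIs were scaled to the median total of a batch, and the Fano factor used the sample variance. Extra-Poisson CV squared subtracted the mean times the average scaling factor from the variance and divided by the squared mean. Levels were compared as summed UMIs over all UMIs of a batch with a pseudocount of 0.5 UMI, and differences past 2-fold were counted. Between genotypes, levels and CV squared were compared between batches of the same number. Sums per batch were also tested with edgeR 4.0.16 (quasi-likelihood, 15071 genes, Benjamini-Hochberg), where a second fit took the batch number as replicate block, and with DESeq2 1.42.0. Members were joined by average linkage on the mean WT Spearman rho, with groups taken at 0.3. Python 3.11.15 with numpy 2.4.6, pandas 2.3.3 and scipy 1.17.1 and R 4.3.3 were used. GENCODE v44 gave names and positions and is a later release than the authors' annotation.

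The members and the gene lists were chosen with earlier results of these data known. Genes named were the 20 highest members, 3 on each side of the threshold, up to 8 past 2-fold each way, the 5 highest and 5 lowest ratios of CV squared, the 10 closest pairs, leading group members and members whose noise rested on 1 cell. Others, such as the members on lists, those of small groups, those sharing a barcode and those past 1.5-fold, were named after their values were seen. With 1 sample per genotype, cells were not used as replicates. All counts of UMIs carry counting error, which limits genes near the mean of 2 most.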

Additional observations from a re-analysis of the deposited data

How the results depend on the processing

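The choice of members depended on how noise was measured. The number shared with the main 150 was 76 without the highest cell of each gene and batch, 71 with cells thinned to 50000 UMIs, 73 when ranked by extra-Poisson CV squared, 80 with a minimum mean of 5, 32 with unscaled UMIs and 53 to 89 by 1 batch alone, and 111 to 147 under the other settings. For these and the following noise values, members were chosen anew. Members among the 150 noisiest SCC4 KO genes (34 in the main ranking) numbered 105 with unscaled UMIs, 16 by CV squared and 54 with a minimum mean of 5. The ratio of the median CV squared in SCC4 KO, 3.33, was 0.717 with unscaled UMIs, 2.45 with a minimum mean of 5, 2.61 thinned, 2.64 without the highest cell, 2.82 with a minimum mean of 1, 3.31 without cells under 1/3 of the median total, 3.48 with totals free of MT-, RPL, RPS and histones, 5.15 by CV squared, and 2.70 to 4.03 by 1 batch. It was 2.999 with cells between 1/3 and 3 times the median and 3.41 without the cells of the LINC00559 barcode, both chosen after seeing the data. Only the unscaled ratio lay below 1, and the cause was not tested.

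Members higher in SCC4 KO (0) numbered 3 on sums over both batches, 7 at 1.5-fold, 1 to 4 by 1 batch, 1 without the LINC00559 barcode and 1 without the highest cell of each gene and batch (both chosen after seeing the data), and 21 each by edgeR without and with the replicate block and by DESeq2. Members lower (31) numbered 54 at 1.5-fold, 87 by edgeR, 89 with the replicate block and 81 by DESeq2, and 30 to 38 otherwise. The share over all genes tested was counted for the main calls, those without the highest cell and edgeR without the block. For the other settings it was not counted, so those numbers say nothing particular to the members. The median rho of WT pairs, 0.0068, was 0.01004 by Pearson's r, 0.0026 thinned and 0.0089 with totals free of the members. The HEK293T single-cell ratio, 1.12, was 1.24 with a minimum mean of 5. Values that changed direction were the unscaled CV squared ratio, the near-zero median rho of SCC4 KO pairs (0.0011, −0.0015 thinned) and the HEK293T 15-pg RNA ratio (1.16, 0.968 thinned). Batches of one number did not deviate together between the genotypes (Pearson's r −0.083 across 5204 genes). Levels and CV squared were still compared between batches of the same number, a pairing that this value does not bear out.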

Other observations

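Outside the co-varying group, 6919 genes had a mean of at least 1 scaled UMI per cell in all 4 batches. Of these, 9 correlated with the mean level of the group at a Spearman rho over 0.3 in every batch, and all 9 were non-members. They were GRM3 (a metabotropic glutamate receptor), PDE4D (a cyclic AMP phosphodiesterase), ZNF624, the long noncoding RNA SAMMSON, JADE1 (a scaffold of histone acetyltransferases), ENSG00000284607, MAP3K20 (a stress-activated kinase), FAM223A and BUB3 (a spindle checkpoint protein). GRM3 had rho 0.65 and 0.66 in WT batches 1 and 2 and 0.54 and 0.60 in SCC4 KO, at means of 1.02 to 2.19. BUB3, at means of 23.0 to 48.1, had 0.52 and 0.55 in WT and 0.43 and 0.30 in SCC4 KO. These genes were named after their values were seen, and all correlations share the cells and their totals.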
